A study of Mus musculus with 64 samples.

Results

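The genes described here encode small heat shock proteins (Cryab, Hspb1, Hspb2, Hspb3, Hspb6, Hspb7 and Hspb8), their co-chaperone Bag3, and desmin (Des) and filamin C (Flnc), the filament proteins of the Z-disc that these chaperones attend. They were taken by gene symbol, and all 10 were found among the 39152 named genes of the deposited tables. Bulk RNA of both ventricles, right (RV) and left (LV), had been sequenced in 32 C57BL6 mice, for a total of 64 libraries. An animal is named here by its group and number, as in cKO_2006. Every animal carried floxed Pkp2 alleles (Pkp2 fl/fl). Pkp2 encodes plakophilin-2 of the desmosome, the junction that couples cardiomyocytes mechanically. In 4 of the 5 groups a tamoxifen-inducible Cre recombinase (αMyHC-Cre-ER(T2)), driven by a promoter active in cardiomyocytes, had deleted Pkp2. Untreated cKO animals (n = 4) received the vehicle HBSS. AAV_3E13 animals (n = 8) were cKO animals dosed 1 week before tamoxifen with 3e+13 vector genomes per kg of an AAV9 vector carrying mouse Pkp2. AAV_1E14 animals (n = 5) received 1e+14 vector genomes per kg at the same time, and AAV_1E14_2.5wk animals (n = 6) received that dose 2.5 weeks after the deletion. WT animals (n = 9) were littermates without Cre and received HBSS. No group carried Cre with intact Pkp2. Hearts were collected at 51 weeks, except that untreated cKO hearts were collected earlier, so genotype and age cannot be told apart in any comparison with that group.

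Small heat shock proteins bind unfolding proteins and keep them soluble without spending ATP. In striated muscle they gather on Z-discs and on desmin filaments, which tie the contractile lattice to the desmosome. BAG3 joins HSPB8 to HSP70 and hands damaged filamin to autophagy, a route called chaperone-assisted selective autophagy, and mutations of human DES, FLNC, CRYAB and BAG3 cause cardiomyopathy.

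The labels were checked through Pkp2, which averaged 58.9 CPM (counts per 1000000 counts) in cKO RV, 297 in AAV_3E13 RV, 1307 in AAV_1E14 RV, 1929 in AAV_1E14_2.5wk RV and 150.3 in WT RV, with a like order in LV. Between 5.34 M and 10.2 M counts of a library entered the tests (M stands for 1000000). The 8 defining cardiomyocyte markers were abundant in all 64 libraries (summed level 7655 to 60666 CPM), and 8 markers of skeletal muscle summed to at most 2.97 CPM. Of the libraries, 3 were singled out. The RV library of WT_5819 held 4 atrial markers at 659.9 CPM in sum, against 5.61 to 82.1 CPM in the other 8 WT RV libraries. Outside WT such sums were not rare. They ran from 212 to 757 CPM in the cKO libraries and up to 1224 CPM in AAV_1E14_2.5wk (LV of AAV_1E14_2.5wk_5810). The RV library labelled AAV_1E14_2.5wk_5814 held Xist at 262 CPM together with Y-linked genes at 296 CPM, and its LV partner held Xist at 3075 CPM with Y-linked genes at 0. Animals WT_5819 and AAV_1E14_2.5wk_5814 were also left out in turn, and calls that changed are named below. WT_5819 was not left out of the comparisons within LV, so the LV calls against WT were not checked this way. No other animal was left out for its atrial sum.

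Promoter sequences were taken from RefSeq (GRCm38.p6). It gave 10 windows, each from -250 to 50 around a transcription start, for 8 of the 10 genes. Cryab and Hspb2 were not matched. Heat shock factors bind inverted repeats of GAA, so the windows were searched on both strands for GAANNTTC and TTCNNGAA. GAANNTTC stood in 5 of these 10 windows (of Bag3, Hspb1, Hspb3, Hspb6 and Hspb8) and in 7.86% of all 32851 promoters. By gene, these were 5 of 8 genes, beside 2442 of all 27025 genes. TTCNNGAA stood in 0 of the 10 windows and in 8.52% of all promoters. The form GAAGTTTC, one spelling of GAANNTTC, stood in Hspb1, Hspb6, Hspb8 and Bag3 and in 1.21% of all promoters. Because it is the spelling of these genes' own matches, the share is a description and no test. The stretches around the matches are shown because the same letters stand in genes that moved in opposite directions in cKO RV. Capitals mark the matches to GAANNTTC.
Hspb1, chr5:135887779-135887878, plus strand: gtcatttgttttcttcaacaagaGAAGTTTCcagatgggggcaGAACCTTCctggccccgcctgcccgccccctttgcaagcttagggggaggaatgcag
Hspb6, chr7:30553161-30553300, plus strand: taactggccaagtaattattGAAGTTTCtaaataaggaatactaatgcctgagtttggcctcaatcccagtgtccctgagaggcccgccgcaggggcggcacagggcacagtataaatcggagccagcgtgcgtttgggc
Hspb8, chr5:116422835-116422904, minus strand: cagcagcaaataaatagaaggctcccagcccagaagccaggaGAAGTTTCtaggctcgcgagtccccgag
Bag3, chr7:128523603-128523632, plus strand: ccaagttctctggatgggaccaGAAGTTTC
Hspb3, chr13:113663867-113663926, minus strand: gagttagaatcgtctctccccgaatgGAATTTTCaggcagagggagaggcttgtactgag
GAAGTTTC began at -117 in Hspb1, at -120 in Hspb6, at 3 in Hspb8 and at 43 in Bag3, counted from the transcription start. A TATAAA stood at -29 in Hspb6 and at -11 in Hspb3, and in 13.6% of all promoters. A match is a string of letters and does not show that a factor was bound.

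Levels between genes were compared in TPM, which corrects for transcript length. In WT RV the order was Hspb7 (467 ± 96.5 TPM, SD, n = 9), Des (442 ± 73.8), Hspb6 (372 ± 53.7), Hspb8 (196 ± 38.4), Hspb1 (156 ± 27.9), Bag3 (95.0 ± 9.42), Flnc (74.1 ± 11.2), Cryab (40.8 ± 22.3), Hspb2 (29.0 ± 2.39) and Hspb3 (3.41 ± 1.22). The neighbours Hspb7 and Des, Des and Hspb6, Hspb8 and Hspb1, Flnc and Cryab, and Cryab and Hspb2 lay closer together than the sum of their SDs. In WT LV Hspb6, the muscle protein HSP20, led with 719 ± 98.2 TPM, beside Hspb7 at 718 ± 220.2 TPM (n = 9 each). In cKO hearts Des led in both ventricles (501 ± 198 TPM in RV and 577 ± 270.1 TPM in LV, n = 4). Hspb1 stood above Hspb6 in cKO RV (238 and 177 TPM) and in cKO LV (362 and 257 TPM), whereas in the other 8 sets of libraries Hspb6 stood above Hspb1. Cryab, known as an abundant cardiac chaperone, was listed at only 23.2 to 42.0 TPM in all 10 sets. Cryab (GRCm39 chr9:50651859-50668567, plus strand) overlaps Hspb2 (chr9:50662378-50663858, minus strand), and its estimated count was not whole, by more than 0.01, in 64 of 64 libraries and that of Hspb2 in 45. Hspb2 was itself listed at only 19.4 to 30.1 TPM in the 10 sets. Reads of these neighbours may have been split between them, so the values of both genes are uncertain. The part of such a split in the low Cryab level was not tested. Hspb3 rested on 6 to 48 counts per library, the fewest of the 10.

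**Figure D1:**
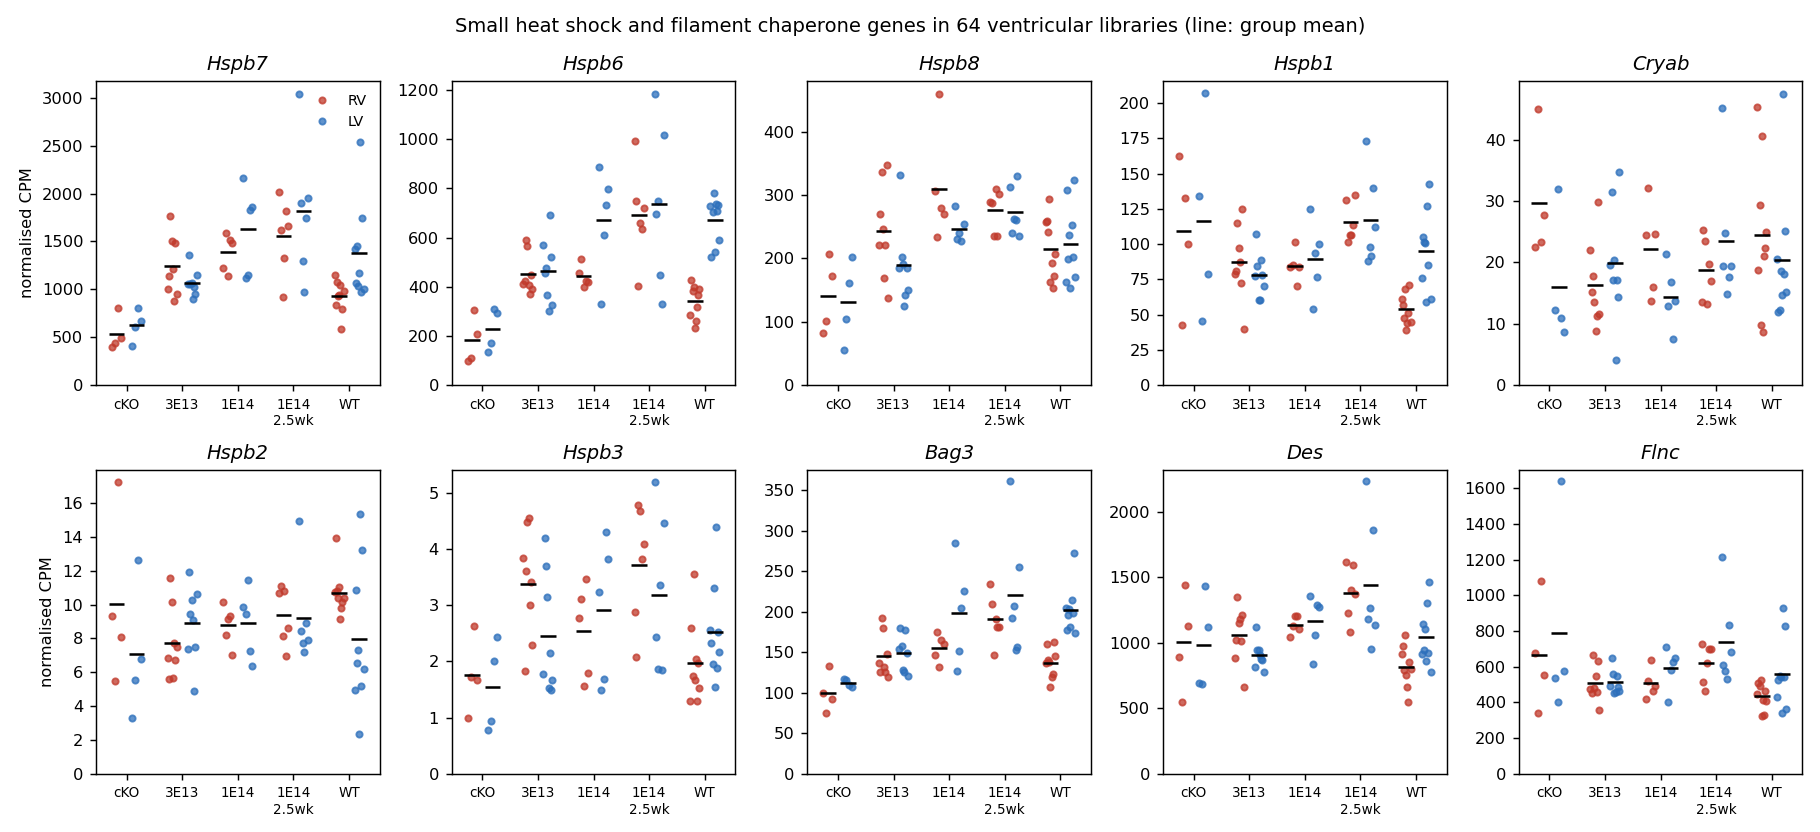
Level in CPM (vertical axis of each panel) of the 10 genes in each of the 64 libraries, by group (RV red, LV blue); each point is 1 library and the bar marks the mean. Hspb6, Hspb7 and Bag3 in cKO LV lay below every WT LV library, and Hspb1 in AAV_1E14_2.5wk RV (102 to 135 CPM) lay above every WT RV library (38.8 to 71.3 CPM). Over all genes 46.6% were called in cKO LV and 36.3% in AAV_1E14_2.5wk RV against WT, and the share without overlap is not given.

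The first comparison asks how loss of Pkp2 from cardiomyocytes changed these genes. In cKO LV, 4 of the 10 genes were lower than in WT LV and none was higher. In cKO RV, 3 were lower and 2, Hspb1 and Flnc, were higher. Over all genes tested 46.6% were called in LV (23.6% higher, 23% lower) and 42.3% in RV (22% higher, 20.3% lower), so 4 and 5 of 10 were shares near the background. The median log2 fold change of the 10 genes was -0.51 in LV and -0.08 in RV, beside 0.05 and 0.02 over all genes. Where ranges in CPM are said not to overlap, here or below, the share of all genes without overlap is not given.

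Hspb6 and Hspb7 showed the largest falls. Hspb6 stood at 134, 171, 309 and 293 CPM in cKO LV (cKO_2006, cKO_2052, cKO_3213 and cKO_3217), against 523, 706 and 780.1 CPM (lowest, median and highest of 9) in WT LV. Every cKO LV library lay below every WT LV library. The log2 fold change was -1.55 ± 0.21 (SE), with an adjusted p of 4.15e-05 in edgeR's quasi-likelihood test with Benjamini-Hochberg adjustment. In RV, Hspb6 stood at 99.8, 111, 305 and 209 CPM in cKO and at 232, 368 and 426 CPM in WT (lowest, median and highest). The ranges overlapped through cKO_3213, and the log2 fold change was -0.85 ± 0.26 (edgeR adjusted p = 0.0162). That RV call was lost without cKO_2006 (-0.65, edgeR adjusted p = 0.0593) and without cKO_2052 (-0.68, 0.0607). Hspb7, the cardiovascular small heat shock protein that binds filamin C, stood at 409, 608, 808 and 669 CPM in cKO LV, against 971, 1175 and 2541 CPM in WT LV. Again no library overlapped, and the log2 fold change was -1.13 ± 0.27 (edgeR adjusted p = 0.00304). In RV, Hspb7 stood at 398, 440.4, 806 and 495 CPM in cKO and at 581, 942 and 1146 CPM in WT, with a log2 fold change of -0.73 ± 0.20 (edgeR adjusted p = 0.00876).

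Bag3 and Hspb8, partners in one chaperone complex, were lower in cKO LV. Bag3 lay in a narrow band in cKO LV, at 117, 116, 109.6 and 107 CPM, against 174, 199 and 273 CPM in WT LV. The groups did not overlap (log2 fold change -0.84 ± 0.12, edgeR adjusted p = 6.62e-05). In RV, Bag3 stood at 99.8, 75.2, 133 and 92.7 CPM in cKO and at 107, 138 and 163 CPM in WT, and the ranges overlapped. The log2 fold change was -0.39 ± 0.14 (edgeR adjusted p = 0.0378), and the call was lost without cKO_2006 (-0.39, 0.0775), cKO_2052 (-0.28, 0.143) or cKO_3217 (-0.35, 0.105) and without WT_5819 (-0.35, 0.0601). Hspb8 stood at 54.9, 105, 161 and 202 CPM in cKO LV, against 153, 201 and 323 CPM in WT LV. Its log2 fold change was -0.76 ± 0.29 (edgeR adjusted p = 0.0455), which was lost without cKO_2006 (-0.51, 0.124) or cKO_2052 (-0.67, 0.117). The LV call was also lost with transcript length as an offset (-0.73, edgeR adjusted p = 0.0524) and without a filter on low counts (-0.76, 0.0501), as was the RV call of Bag3 (-0.30, 0.104, and -0.39, 0.0503). In RV the log2 fold change of Hspb8 was -0.55 ± 0.23 and missed the threshold (edgeR adjusted p = 0.0693). It was called lower there by DESeq2 (-0.56, adjusted p = 0.0330), by limma (-0.66, 0.0348), in 1 edgeR fit over all groups (-0.62, 0.0345) and without cKO_3213 (-0.79, 0.0153).

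Neither filament gene was called lower. Flnc, which crosslinks actin at the Z-disc, stood at 677, 339.5, 1079 and 555 CPM in cKO RV, against 325, 447 and 525 CPM in WT RV. It was higher in 3 of 4 cKO RV libraries than in any WT RV library, with a log2 fold change of 0.67 ± 0.22 (edgeR adjusted p = 0.0217). Without cKO_3213 the change was 0.34 and the call was lost (edgeR adjusted p = 0.168), as it was with limma on log2(TPM + 1) (0.45, adjusted p = 0.132). In cKO LV the same animal stood at 1638 CPM beside 404 to 578 CPM in the other 3, and Flnc was not called (log2 fold change 0.50 ± 0.34, edgeR adjusted p = 0.237). Des, the intermediate filament of muscle, stood at 894, 549.8, 1441 and 1130.3 CPM in cKO RV, against 547, 802 and 1057 CPM in WT RV. Neither ventricle passed for Des, with log2 fold changes of 0.36 ± 0.21 in RV and -0.08 ± 0.21 in LV (edgeR adjusted p = 0.183 and 0.800).

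Hspb1, the widely expressed HSP27, which binds actin and desmin filaments, rose in cKO RV. It stood at 162, 43.0, 133 and 100.0 CPM in cKO RV, against 38.8, 50.9 and 71.3 CPM in WT RV. Animals cKO_2006, cKO_3213 and cKO_3217 lay above every WT RV library and cKO_2052 lay within them. The log2 fold change was 1.09 ± 0.24 (edgeR adjusted p = 0.00226), and the call held without each cKO animal in turn. The mean effective transcript length of Hspb1 was 757 bases in cKO RV and 601 bases in WT RV. On log2(TPM + 1), which divides by that length, the difference was 0.45 and missed the threshold in limma (adjusted p = 0.215), while edgeR with the length as an offset kept the call. In LV, Hspb1 stood at 134, 45.5, 207 and 78.8 CPM in cKO and at 58.7, 101 and 142 CPM in WT, so the cKO libraries lay on both sides of the WT libraries (log2 fold change 0.30 ± 0.32, edgeR adjusted p = 0.466). The RV and LV changes of Hspb1 were not shown to differ (log2 difference 0.76 ± 0.43, edgeR adjusted p = 0.493). Cryab, Hspb2 and Hspb3, the last of which pairs with HSPB2 in muscle, passed in neither ventricle. Their log2 fold changes lay between -0.11 and 0.34 in RV and between -0.68 and -0.17 in LV.

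**Figure D2:**
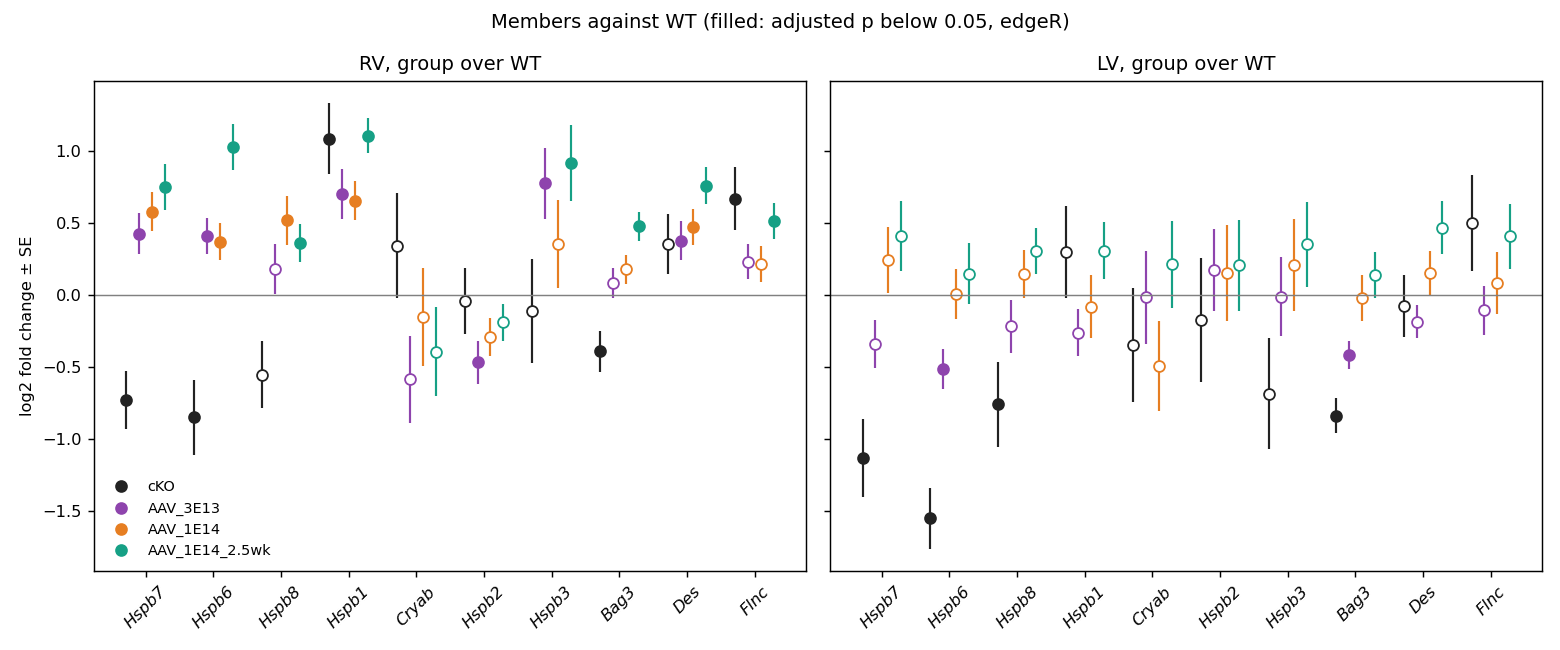
Log2 fold change with its SE (bars) of each of the 10 genes against WT, in RV and LV, for cKO and the 3 vector groups; filled points passed an edgeR adjusted p of 0.05. In RV the vector groups lie mostly above 0 (8 genes called higher in AAV_1E14_2.5wk), and in LV the called points are those of cKO (4 lower) and AAV_3E13 (2 lower).

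Cell type markers moved together with these changes. The 8 cardiomyocyte markers summed to 18394 ± 9018 CPM in cKO RV (9539 to 30893) and to 40995 ± 4891 CPM in WT RV (34014 to 47117). In LV they summed to 17520 ± 6741 CPM in cKO (7655 to 22188) and to 50994 ± 2961 CPM in WT (47880 to 55199). Fewer cardiomyocytes and less RNA of these genes per cardiomyocyte cannot be told apart in bulk tissue. The sum of 6 fibroblast markers averaged 3992 CPM in cKO RV (2983 to 6001) and 1022 CPM in WT RV (649.9 to 1208), and that of 4 macrophage markers averaged 472 CPM (288 to 672) and 91.2 CPM (63.6 to 106). In LV the fibroblast sum averaged 3146 CPM in cKO and 1045 CPM in WT. Smooth muscle markers, whose cells also make Hspb6, Hspb1 and Des, differed less, with 6 markers at 516 CPM in cKO RV (445 to 631) and 612 CPM in WT RV (552 to 730.1). The part of these cell types in the result was not tested.

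The genes were also set against the cardiomyocyte markers. Hspb6 stood at 10.04 CPM per 1000 CPM of cardiomyocyte markers in cKO RV and at 8.32 in WT RV, and at 13.5 in cKO LV and 13.2 in WT LV. Its ranges overlapped in both ventricles, as did those of Hspb7, Hspb8, Bag3 and Cryab. Bag3 averaged 6.26 for cKO against 3.37 for WT in RV, and 7.84 against 3.96 in LV. Flnc stood at 40.3 in cKO RV (19.1 to 70.9) and at 10.6 in WT RV (8.40 to 12.5), and at 48.0 in cKO LV (21.6 to 73.8) and 10.9 in WT LV (6.74 to 17.0). Every cKO library lay above every WT library for Flnc, as for Des (61.2 and 19.8 in RV, 61.0 and 20.5 in LV). Hspb1 did so in RV, at 7.56 in cKO (2.42 to 17.0) and 1.31 in WT (1.00 to 1.92). In all, 5 of 10 genes lay wholly above WT in RV (Des, Flnc, Hspb1, Hspb2 and Hspb3) and 3 in LV (Des, Flnc and Hspb2). Among all genes with a mean of at least 1 CPM in these libraries, 38% lay wholly above WT in RV and 67.9% in LV on the same measure, with a median ratio of cKO over WT of 2.53 and 3.55. No test was run on these ratios, since the denominator itself differed between the groups.

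**Figure D3:**
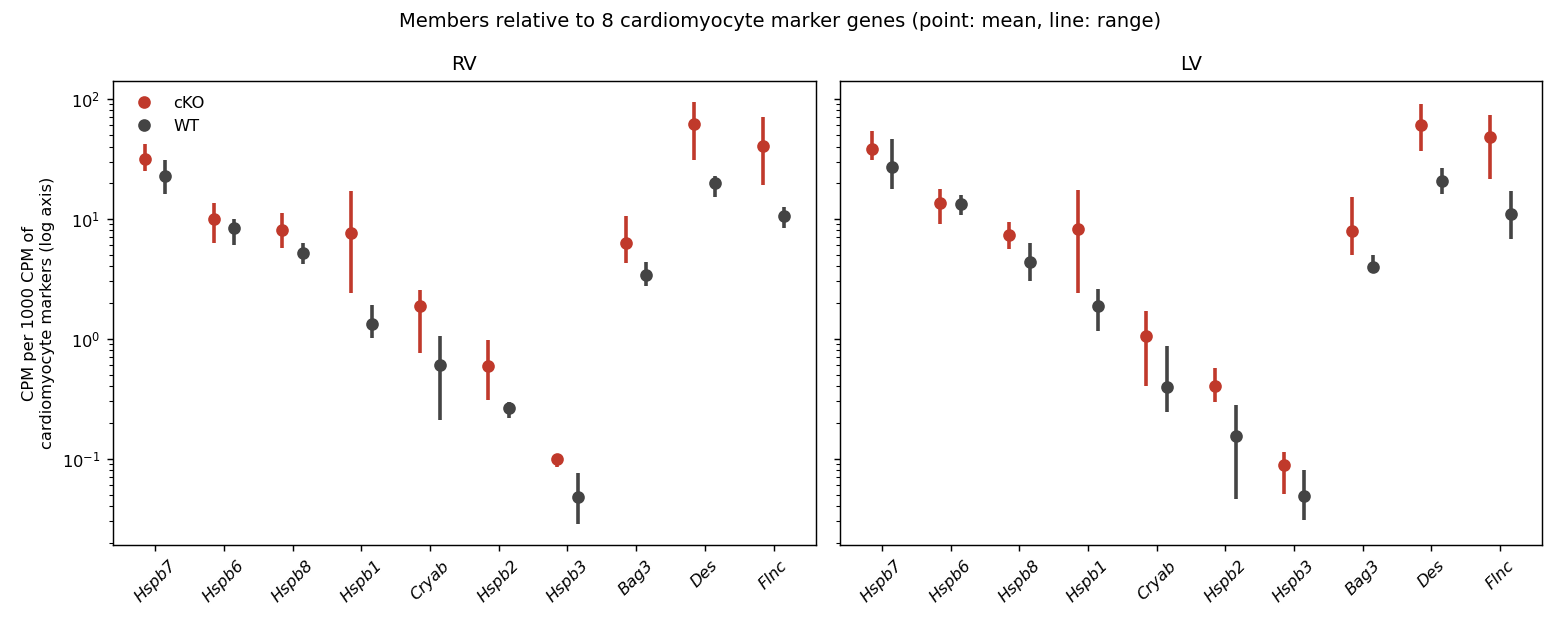
Level of each gene per 1000 CPM of 8 summed cardiomyocyte markers (log axis), cKO beside WT, in RV and LV; points are means and bars run from the lowest to the highest library (cKO n = 4, WT n = 9). Flnc and Des bars do not overlap in either ventricle, while Hspb6 means are close (13.5 in cKO LV and 13.2 in WT LV).

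The vector groups were next compared with WT. In RV they lay above WT for many of these genes: 8 of 10 were higher in AAV_1E14_2.5wk, 5 of 10 in AAV_1E14 and 5 of 10 in AAV_3E13, where Hspb2 was lower. Over all genes tested 36.3% were called in AAV_1E14_2.5wk RV (17.8% higher, 18.5% lower), 29.5% in AAV_1E14 RV (15.4% higher, 14.1% lower) and 21.8% in AAV_3E13 RV (11.8% higher, 10% lower). In LV, 0 of 10 were called in AAV_1E14_2.5wk or AAV_1E14 and 2 of 10 were lower in AAV_3E13. Over all genes 1.49% were called in AAV_1E14_2.5wk LV (0.859% higher, 0.633% lower), 0.0075% in AAV_1E14 LV (0.0075% higher, 0% lower) and 39.2% in AAV_3E13 LV (19.9% higher, 19.2% lower). These comparisons share the WT libraries. Cardiomyocyte markers summed to 42756 CPM in AAV_1E14_2.5wk RV (36526 to 55007), 55297 CPM in AAV_1E14 RV (47213 to 60666), 38905 CPM in AAV_3E13 RV (32650 to 48698) and 40995 CPM in WT RV (34014 to 47117), so all AAV_1E14 RV libraries lay above WT RV. Fibroblast markers summed to 2030 CPM in AAV_1E14_2.5wk RV, 1133 CPM in AAV_1E14 RV, 1963 CPM in AAV_3E13 RV and 1022 CPM in WT RV. Per 1000 CPM of cardiomyocyte markers, Hspb6 stood at 16.2 in AAV_1E14_2.5wk RV, 8.11 in AAV_1E14 RV and 8.32 in WT RV, and Hspb1 at 2.76, 1.55 and 1.31. The part of these cell types in the result was not tested.

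In AAV_1E14_2.5wk RV, Hspb1 stood at 102, 110.1 and 135 CPM (lowest, median and highest of 6), against 38.8, 50.9 and 71.3 CPM in WT RV, and no library overlapped. The log2 fold change was 1.11 ± 0.12 (edgeR adjusted p = 1.12e-05). Hspb6 stood at 404, 691 and 991 CPM in AAV_1E14_2.5wk RV, against 232, 368 and 426 CPM in WT RV, and only the lowest treated library, AAV_1E14_2.5wk_5806, lay among the WT libraries (1.03 ± 0.16, edgeR adjusted p = 1.60e-04). Des did not overlap either, at 1081, 1388 and 1613 CPM in AAV_1E14_2.5wk RV and 547, 802 and 1057 CPM in WT RV (0.76 ± 0.13, edgeR adjusted p = 2.74e-04). Hspb7 (0.75), Hspb3 (0.92), Flnc (0.52), Bag3 (0.48) and Hspb8 (0.36) were also called higher, while Cryab and Hspb2 were not (-0.39 and -0.19). The call of Hspb8 was lost without WT_5819 (0.33, edgeR adjusted p = 0.0725) and without AAV_1E14_2.5wk_5814 (0.34, 0.0882). The other 7 calls held without either.

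In AAV_1E14 RV, Hspb1 stood at 83.8, 84.99, 101, 70.0 and 83.6 CPM (AAV_1E14_2034, AAV_1E14_2043, AAV_1E14_5726, AAV_1E14_5822 and AAV_1E14_5825), and only AAV_1E14_5822 lay within the WT RV range of 38.8 to 71.3 CPM. Its log2 fold change was 0.66 ± 0.14 (edgeR adjusted p = 0.00243). Hspb7 (0.58), Hspb8 (0.52), Des (0.47) and Hspb6 (0.37) were also higher. The call of Hspb6 was lost without any 1 of the 5 AAV_1E14 animals (0.32 to 0.41, edgeR adjusted p 0.0502 to 0.104). That of Hspb8 was lost without AAV_1E14_5726 (0.34, 0.133), which held it at 459.7 CPM beside 233 to 306 CPM in the others, and without AAV_1E14_2034 (0.53, 0.0618) or WT_5819 (0.48, 0.0520). Without AAV_1E14_2034 or AAV_1E14_5726, 3 calls remained. In AAV_3E13 RV, Hspb1 (0.70 ± 0.17, edgeR adjusted p = 0.00804) stood at 40.0, 84.4 and 125 CPM, and only the lowest library lay within the WT range. Hspb3 (0.78), Hspb7 (0.43), Hspb6 (0.41) and Des (0.38) were higher and Hspb2 (-0.47) was lower. Des and Hspb7 lost the call without WT_5819 (0.38 and 0.40, edgeR adjusted p = 0.0643 and 0.0715). Of the 6 calls, 2 (Hspb1 and Hspb3) were kept in 1 fit over all groups and 2 (Hspb1 and Hspb6) without a filter on low counts, and Hspb2 missed the threshold once transcript length entered as an offset (-0.32, 0.110).

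In AAV_3E13 LV, Hspb6 stood at 300.4, 466.3 and 691 CPM, against 523, 706 and 780.1 CPM in WT LV (-0.51 ± 0.14, edgeR adjusted p = 0.00758). Bag3 stood at 121, 152 and 180.0 CPM in AAV_3E13 LV, against 174, 199 and 273 CPM in WT LV (-0.42 ± 0.10, edgeR adjusted p = 0.00249). Both genes were thus lower than WT in AAV_3E13 LV, with overlapping ranges, and Des, Hspb1 and Hspb7 were also called lower when transcript length entered as an offset (5 in all). Cardiomyocyte markers summed to 31879 CPM in AAV_3E13 LV and 50994 CPM in WT LV without overlap, and per 1000 CPM of them Hspb6 stood at 14.5 in AAV_3E13 LV and 13.2 in WT LV and Bag3 at 4.69 and 3.96. The part of cardiomyocyte content in these calls was not tested. In AAV_1E14 LV the log2 fold changes lay between -0.49 (Cryab) and 0.24 (Hspb7), with 0 genes at an unadjusted p under 0.05 in edgeR and 0 called by DESeq2 or limma. In AAV_1E14_2.5wk LV they lay between 0.14 (Bag3) and 0.47 (Des), with 1 gene, Des, at an unadjusted p under 0.05 and 0 called by DESeq2 or limma. The AAV_1E14_2.5wk LV libraries spread widely, as with Hspb6 at 328, 722 and 1183 CPM.

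Against untreated cKO, Hspb6 and Hspb7 were higher in all 6 comparisons of the vector groups. In RV, 6 of 10 genes were called in AAV_3E13 (5 higher), 4 in AAV_1E14 (all higher) and 6 in AAV_1E14_2.5wk (5 higher). Over all genes 42% were called in AAV_3E13 RV (19.4% higher, 22.7% lower), 50.6% in AAV_1E14 RV (24.2% higher, 26.4% lower) and 47.9% in AAV_1E14_2.5wk RV (22.6% higher, 25.2% lower). In LV, 2 genes were called in AAV_3E13, 4 in AAV_1E14 and 4 in AAV_1E14_2.5wk, all higher, where 18% (8.58% higher, 9.45% lower), 35.4% (17.3% higher, 18.1% lower) and 33.3% (17.4% higher, 15.9% lower) of all genes were called. In AAV_3E13 LV, Bag3 and Hspb8 were not called by edgeR (adjusted p = 0.0534 and 0.302), and DESeq2 called Bag3 (0.37, adjusted p = 0.0237). These comparisons share the 4 cKO animals, whose hearts were collected earlier.

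Hspb7 had no overlap in any of the 6 comparisons, for which the share of all genes without overlap is not given. It stood at 876 to 1769 CPM in AAV_3E13 RV, 1135 to 1590.0 CPM in AAV_1E14 RV and 915 to 2012 CPM in AAV_1E14_2.5wk RV, against 398 to 806 CPM in cKO RV. The log2 fold changes in RV were 1.17 ± 0.23, 1.36 ± 0.22 and 1.52 ± 0.26 (edgeR adjusted p = 0.00130, 4.78e-04 and 6.50e-04). In LV they were 0.74 ± 0.17, 1.35 ± 0.27 and 1.54 ± 0.31 (0.0112, 0.00382 and 0.00400). Hspb6 stood at 370 to 591 CPM in AAV_3E13 RV, 398 to 514 CPM in AAV_1E14 RV and 404 to 991 CPM in AAV_1E14_2.5wk RV, against 99.8 to 305 CPM in cKO RV. Its RV log2 fold changes were 1.28 ± 0.27, 1.28 ± 0.29 and 1.91 ± 0.34 (edgeR adjusted p = 0.00178, 0.00385 and 7.81e-04). In LV the change of Hspb6 was 0.99 ± 0.26 in AAV_3E13, 1.53 ± 0.33 in AAV_1E14 and 1.70 ± 0.38 in AAV_1E14_2.5wk (edgeR adjusted p = 0.0199, 0.00557 and 0.00624), and the AAV_3E13 call was lost without cKO_2006 (0.85, 0.0631).

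Bag3 and Hspb8 were higher than in cKO in both ventricles of AAV_1E14 and AAV_1E14_2.5wk. In AAV_1E14_2.5wk LV Bag3 stood at 153 to 361 CPM and Hspb8 at 236 to 329.6 CPM, against 107 to 117 CPM and 54.9 to 202 CPM in cKO LV, with no overlap for either gene. The log2 fold changes there were 0.97 ± 0.23 for Bag3 and 1.06 ± 0.29 for Hspb8 (edgeR adjusted p = 0.00876 and 0.0164). In AAV_1E14 LV the Hspb8 call (0.88, edgeR adjusted p = 0.0441) was lost without cKO_2052 (0.79, 0.0966) or cKO_3213 (1.00, 0.0504) and without AAV_1E14_2034 (0.83, 0.0904), AAV_1E14_5726 (0.89, 0.0719), AAV_1E14_5822 (0.91, 0.0680) or AAV_1E14_5825 (0.87, 0.0794). In AAV_3E13 RV, Bag3 (0.49, edgeR adjusted p = 0.0290) was lost without cKO_2006 (0.49, 0.0608), cKO_2052 (0.38, 0.104) or cKO_3217 (0.45, 0.0786). Hspb8 in the same comparison (0.75, 0.0425) was lost without cKO_2006 (0.56, 0.132) or cKO_2052 (0.63, 0.126). Without cKO_2006, 3 genes were called in AAV_3E13 RV, and without cKO_2052 also 3, with Flnc now called lower (-0.64, edgeR adjusted p = 0.0301). In AAV_3E13 LV 1 call remained without cKO_2006, and 4 genes were called without cKO_2052.

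Hspb3 was higher in AAV_3E13 RV (0.90, edgeR adjusted p = 0.0488) and AAV_1E14_2.5wk RV (1.07, 0.0277). Both calls were lost without cKO_2006 (0.71 and 0.87, edgeR adjusted p = 0.140 and 0.0711), cKO_2052 (0.91 and 1.07, 0.0933 and 0.0576) or cKO_3217 (0.87 and 1.04, 0.102 and 0.0588), and the second also without AAV_1E14_2.5wk_5814 (1.04, 0.0505). Cryab was lower in AAV_3E13 RV (-0.92, 0.0204) and AAV_1E14_2.5wk RV (-0.70, 0.0344), and both calls were lost without cKO_2052 (-0.63 and -0.41, 0.116 and 0.155), which held Cryab at 44.97 CPM beside 22.6 to 27.7 CPM in the other 3. The second was also lost without AAV_1E14_2.5wk_5814 (-0.68, 0.0635), and both with transcript length as an offset. In AAV_1E14_2.5wk LV, by contrast, Cryab was called higher without cKO_2052 (1.15, edgeR adjusted p = 0.0292). Des, Flnc, Hspb1 and Hspb2 were called in none of the 6 comparisons by edgeR with all animals. For Hspb1 the edgeR log2 fold changes ran from -0.61 (AAV_3E13 LV) to 0.06 (AAV_1E14_2.5wk RV), but limma on log2(TPM + 1) called Hspb1 (0.99, adjusted p = 0.0291) and Des (0.84, 0.0229) higher in AAV_1E14_2.5wk RV. In 1 edgeR fit over all groups Des was called higher in AAV_1E14_2.5wk LV (0.55, adjusted p = 0.0325) and Flnc lower in AAV_3E13 LV (-0.62, 0.0487). That fit also called Hspb3 higher in AAV_1E14_2.5wk LV (1.04, 0.0197) and AAV_1E14 LV (0.90, 0.0497). Limma called Hspb3 higher in AAV_1E14_2.5wk LV as well (0.93, adjusted p = 0.0480). Animal cKO_2052 had the lowest Hspb1 of the 4 in both ventricles, and without it Hspb1 was called lower in AAV_3E13 LV (-0.87, edgeR adjusted p = 0.0204) and AAV_1E14 RV (-0.64, 0.0129).

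Between the vector groups few members were called. At the higher early dose, AAV_1E14 against AAV_3E13, 0 of 10 genes were called in RV (0 at an unadjusted p under 0.05, 0 by DESeq2 or limma) and 1 of 10 in LV. Over all genes 9.97% were called in RV (5.02% higher, 4.95% lower) and 19% in LV (10.8% higher, 8.26% lower). That gene was Hspb7, at 2163, 1123, 1150.3, 1827 and 1859 CPM in AAV_1E14 LV, against 897, 1052 and 1358 CPM in AAV_3E13 LV. Its log2 fold change of 0.58 ± 0.16 (edgeR adjusted p = 0.0193) was lost without AAV_1E14_2034 (0.45, 0.0759), AAV_1E14_5822 (0.54, 0.0543) or AAV_1E14_5825 (0.53, 0.0584), and without AAV_1E14_2043 the count was 4. Des (0.34), Bag3 (0.39) and Hspb6 (0.52) also had an unadjusted p under 0.05 in edgeR in this LV comparison. Des was called there by DESeq2 (0.35, adjusted p = 0.0223) and with the length offset (0.37, edgeR adjusted p = 0.0325). AAV_1E14_2.5wk, dosed after the deletion, differed from AAV_1E14 in RV for Hspb1 (0.47 ± 0.11, edgeR adjusted p = 0.0192) and Hspb6 (0.67 ± 0.17, 0.0305), where 8.93% of all genes were called (4.97% higher, 3.95% lower). Hspb1 stood at 101.55 to 135 CPM in AAV_1E14_2.5wk RV and at 70.0 to 101.47 CPM in AAV_1E14 RV, so the ranges nearly touched without overlap. The Hspb6 call was lost without AAV_1E14_2034 (0.67, 0.0609), AAV_1E14_5726 (0.63, 0.0736), AAV_1E14_5822 (0.65, 0.0713) or AAV_1E14_5825 (0.65, 0.0613) or AAV_1E14_2.5wk_5814 (0.65, 0.0621), and both calls were lost in 1 fit over all groups (edgeR adjusted p = 0.36 and 0.124). Des (0.30), Bag3 (0.31) and Flnc (0.31) also had an unadjusted p under 0.05 in edgeR in this RV comparison. DESeq2 called Des there (0.29, adjusted p = 0.0400). In LV 0 genes were called, as 0% of all genes were, with 1 (Cryab) at an unadjusted p under 0.05 and 0 by DESeq2 or limma.

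The ventricles were then compared within each group, in fits without a term for the animal. In WT, 5 of 10 genes were lower in RV than in LV, where 27.7% of all genes were called (12.3% higher, 15.4% lower). In the other 4 groups 0 genes were called, beside 0.00726% of all genes in cKO, 20.2% in AAV_3E13 (10.8% higher, 9.49% lower), 2.95% in AAV_1E14 (1.41% higher, 1.54% lower) and 0.0226% in AAV_1E14_2.5wk. At an unadjusted p under 0.05 there was 1 gene in AAV_1E14 (Hspb6, which DESeq2 called) and 0 in each of the other 3. Limma called 0 in all 4 of these groups, and DESeq2 called 0 in the 3 other than AAV_1E14.

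In WT hearts, Hspb6 stood at 232, 368 and 426 CPM in RV (lowest, median and highest), against 523, 706 and 780.1 CPM in LV, without overlap and lower in RV in 9 of 9 animals. Its log2 difference of -0.98 ± 0.11 ranked 38 among all genes tested by p (edgeR adjusted p = 8.73e-06). Bag3 stood at 107, 138 and 163 CPM in RV and 174, 199 and 273 CPM in LV, also without overlap and in 9 of 9 animals (-0.57 ± 0.09, edgeR adjusted p = 1.45e-04). Hspb1 (-0.83, 7.44e-04) and Hspb7 (-0.58, 0.0142) were lower in RV in 9 of 9 animals, with ranges that overlapped between the ventricles. Des (-0.36, edgeR adjusted p = 0.0361) was lower in 8 of 9, and its call was lost without WT_5819 (-0.30, 0.0838). Flnc, Hspb3, Hspb2, Cryab and Hspb8 were not called by edgeR, though limma called Flnc lower (-0.50, adjusted p = 0.0106), and Hspb8 stood at 154 to 294 CPM in RV and 153 to 323 CPM in LV. Cardiomyocyte markers also differed, at 34014 to 47117 CPM in WT RV and 47880 to 55199 CPM in WT LV. Per 1000 CPM of them, Des stood at 19.8 in RV and 20.5 in LV, Bag3 at 3.37 and 3.96, Hspb7 at 22.7 and 26.8, Hspb1 at 1.31 and 1.86, and Hspb6 at 8.32 and 13.2. The part of cardiomyocyte content in these calls was not tested.

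**Figure D4:**
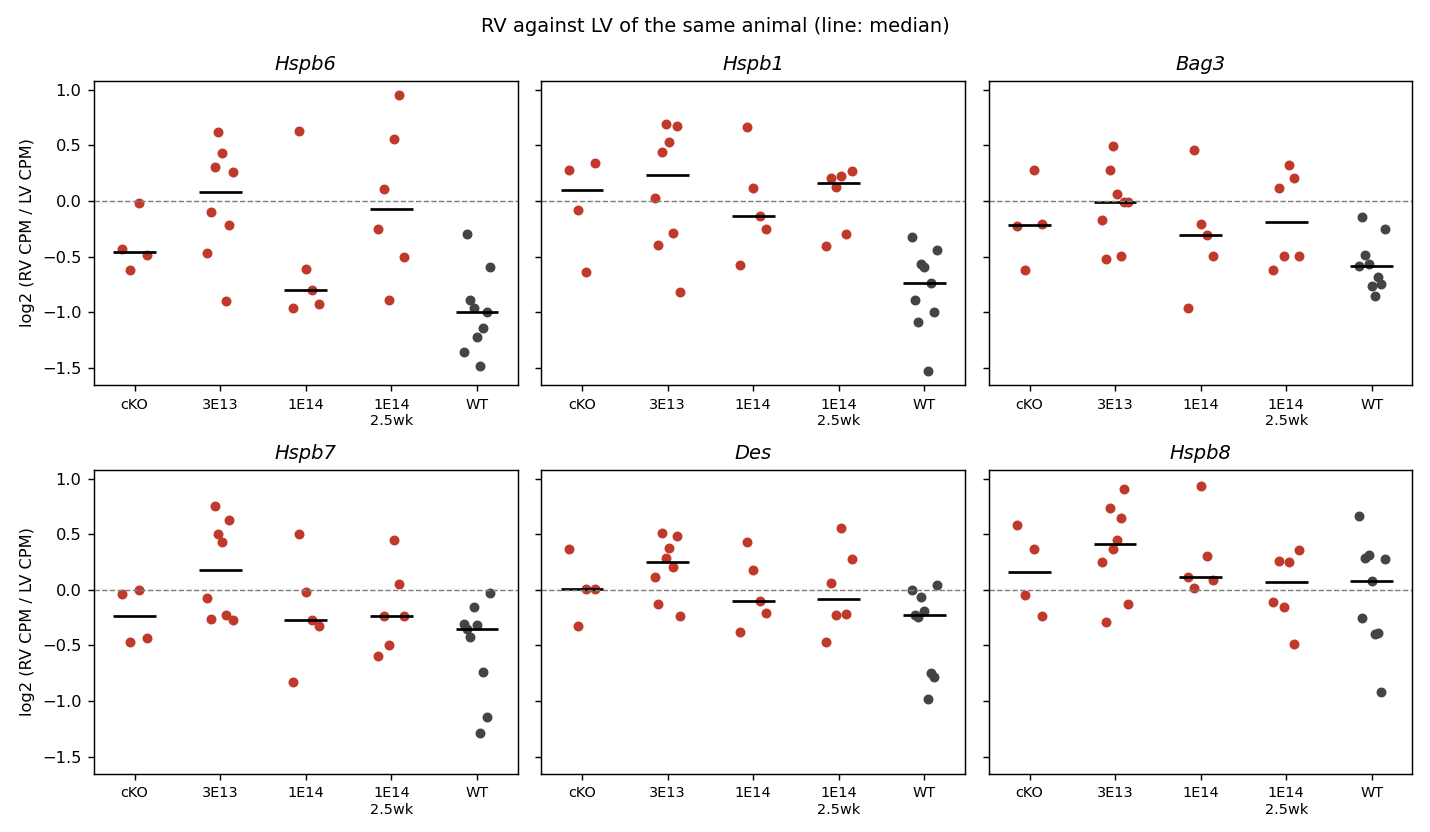
Log2 ratio of RV over LV in each animal (points) for Hspb6, Hspb1, Bag3, Hspb7, Des and Hspb8, by group; the line at 0 marks equal levels. For Hspb6, Hspb1, Bag3 and Hspb7 all 9 WT animals lie below 0, whereas AAV_3E13 animals lie on both sides.

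The difference between RV and LV was itself compared with that of WT. In AAV_3E13, 5 of 10 genes differed, where 36.9% of all genes were called (18.8% higher, 18.1% lower): Hspb1 (0.97 ± 0.25), Hspb6 (0.93 ± 0.20), Hspb7 (0.78 ± 0.23), Des (0.57 ± 0.18) and Bag3 (0.51 ± 0.15), with edgeR adjusted p from 3.58e-04 to 0.0128. In these animals RV was not uniformly the lower ventricle, as Hspb6 was lower in RV in 4 of 8 and Hspb1 in 3 of 8. In AAV_1E14_2.5wk, Hspb6 (0.91 ± 0.28, edgeR adjusted p = 0.0226) and Hspb1 (0.82 ± 0.24, 0.0185) differed, where 18.4% of all genes were called (10.7% higher, 7.72% lower). In AAV_1E14, 0 genes differed and 20% of all genes did (11.4% higher, 8.61% lower). Hspb1 had the smallest p of the 10 there (0.73 ± 0.27, edgeR adjusted p = 0.0554), was alone at an unadjusted p under 0.05, and was called by DESeq2, by limma and with the animal as a block (0.75, edgeR adjusted p = 0.0159). In cKO, 0 genes differed, as 0.0272% of all genes did, with 1 (Bag3) at an unadjusted p under 0.05 and 0 by DESeq2 or limma. Hspb6 and Hspb7 were lower in RV in all 4 cKO animals.

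Effective transcript lengths, which are estimated anew in each library, also differed between groups. In RV the mean effective length of every member was lower in each vector group than in WT. Des, for example, had 2965 bases in AAV_3E13 RV and 3223 in WT RV, and Hspb7 had 3159 and 3487. The mean effective length of Flnc was 8896 bases in AAV_3E13 RV, 9339 in AAV_1E14 RV, 8333 in AAV_1E14_2.5wk RV and 10239 in WT RV, and for Bag3 it was 2274, 2323, 2162 and 2521 bases. For both genes the ranges of AAV_3E13 RV and AAV_1E14 RV overlapped that of WT RV, and the range of AAV_1E14_2.5wk RV did not. With length as an offset all 5 WT calls between ventricles were kept and Flnc was added (-0.55, edgeR adjusted p = 0.00686), and of the 19 calls of the vector groups against WT in RV, all but Hspb2 in AAV_3E13 were kept and Flnc in AAV_3E13 was added (0.39, 0.0253).

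Ratios within a library, which need no scaling between libraries, showed how the members shifted among themselves. Hspb1 over Hspb7 (CPM over CPM) was 0.218 ± 0.134 in cKO RV (SD, n = 4), 0.0782 ± 0.0206 in AAV_1E14_2.5wk RV (n = 6), and 0.0606 ± 0.0196 in WT RV (n = 9), and each cKO RV library (0.0975 to 0.408) lay above each WT RV library (0.0412 to 0.0901). In LV the ratio was 0.194 in cKO (0.0749 to 0.327) and 0.0722 in WT (0.0499 to 0.0985), and the ranges overlapped. Flnc over Hspb7 was 1.23 in cKO RV (0.771 to 1.70) and 0.480 in WT RV (0.344 to 0.606), and 1.22 in cKO LV (0.665 to 2.03) and 0.416 in WT LV (0.290 to 0.558). Des over Hspb7 likewise did not overlap in either ventricle (1.89 in cKO RV and 0.900 in WT RV, 1.57 in cKO LV and 0.804 in WT LV). The denominator Hspb7 was itself lower in cKO (log2 fold change -0.73 in RV and -1.13 in LV), whereas Des was not called (0.36 and -0.08). A gene that did not change would also rise over Hspb7, and the share of all genes without overlap on this ratio is not given. Bag3 over Hspb8 did overlap, at 0.784 in cKO RV (0.541 to 1.21) and 0.660 in WT RV (0.469 to 0.950).

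Over the 64 libraries, the genes most like each member by Pearson's r of log2 CPM fell into different sets. Hspb6 and Hspb7 had the same nearest genes, Actn2 (α-actinin, r = 0.94 and 0.88) and Nrap, a protein of the intercalated disc (r = 0.93 and 0.88). Des was nearest to Synpo2l, a Z-disc protein (r = 0.83), and Bag3 to the translation factor Eif4g1 (r = 0.93). Hspb8 was nearest to Hif1an (r = 0.90), Flnc to Rrp12 (r = 0.83) and Hspb1 to Hdgf (r = 0.83). For Hspb2 (Itga7, r = 0.71), Hspb3 (Aldoa, r = 0.67) and Cryab (Usf1, r = 0.53) the likeness was weaker. These values describe libraries that share groups, animals and tissue make-up, and they carry no test.

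The wider chaperone and filament lists were read from the same tests, in which 42.3% of all genes were called in cKO RV and 46.6% in cKO LV. Among Z-disc partners, 7 of 14 were lower and 3 higher in cKO RV and 8 of 14 were lower in cKO LV, with medians of -0.42 and -0.73. Nebl, Myoz2 and Ldb3 led the falls in LV (-1.74, -1.67 and -1.39), and the stress-linked Ankrd1 (1.27) and Xirp2 (0.93) were higher in cKO RV. Among other filamins and intermediate filaments, 7 of 8 were higher in cKO RV and 6 of 8 in cKO LV, led by vimentin (Vim, 2.04 and 2.02), a filament of fibroblasts and other mesenchymal cells. Synm, which joins desmin filaments, was lower (-0.54 and -0.49), but 0 of these filament genes were called lower in either ventricle without cKO_2006. Of the 14 partners of chaperone-assisted selective autophagy, 3 were higher and 3 lower in cKO RV and 4 were higher and 5 lower in cKO LV, so the 6 of 14 called in RV were near the share of all genes. The light chain Dynll1 was higher (1.34 and 1.54), and the autophagosome genes Map1lc3a (-1.03 and -1.42) and Map1lc3b (-0.55 and -0.78) were lower. In the BAG family, Bag1 (-0.79 and -1.07) and Bag2 (-0.77 and -0.85) were lower in both ventricles and the other 3 were not called. Of 10 mitochondrial and endoplasmic reticulum chaperones, 1 was higher (Pdia4) and 4 were lower in each ventricle, led by the mitochondrial Hsp70 Hspa9 (-1.12 and -1.54). Without cKO_2006 their counts were 1 higher and 4 lower in RV, with a median of -0.50 in place of -0.14, and 0 higher and 5 lower in LV. For the fits without cKO_2006 the share of all genes called is not given. Of 3 heat shock factors, Hsf2 alone was called, lower in cKO LV (-0.95) and at -0.46 in cKO RV. Cryaa, Hspb9 and Odf1, the remaining small heat shock genes, did not pass the filter in any comparison.

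Cytosolic Hsp70, Hsp90 and J-domain chaperones split in cKO: 5 were higher and 5 lower of 27 tested in RV, and 3 were higher and 10 lower of 28 in LV. Over all genes 42.3% were called in cKO RV and 46.6% in cKO LV. The heat-inducible Hspa1a and Hspa1b, near-identical copies whose split of reads is uncertain, had the largest changes, at log2 6.94 and 6.36 in cKO RV and 6.80 and 6.52 in cKO LV. The size of these changes rested on 1 animal. Hspa1a stood at 682, 3.84, 5.52 and 3.24 CPM in cKO RV and 861, 3.04, 4.00 and 3.60 CPM in cKO LV (cKO_2006, cKO_2052, cKO_3213 and cKO_3217), against 0.340 to 3.43 CPM in WT RV and 0.852 to 2.56 CPM in WT LV. For Hspa1b the lowest cKO library (5.37 CPM in RV and 5.72 CPM in LV) lay above the highest WT library (4.23 and 3.99 CPM). Without cKO_2006 the change of Hspa1a was 1.57 in RV (edgeR adjusted p = 0.0340) and 0.86 in LV (0.0518), and that of Hspa1b was 1.81 and 2.05 (0.00142 and 0.00966). Animal cKO_2006 also had the lowest cardiomyocyte marker sums of all libraries and high Hspb1 (162 CPM in RV). Its Hspb6 and Hspb7 were the lowest of the 4 in both ventricles. Without it, 3 cytosolic chaperones were higher and 6 lower in RV, and 1 higher and 11 lower in LV. Of the other filaments 5 of 8 were then higher in RV and 0 lower, and of the BAG family 1 was lower in RV. The share of all genes called without cKO_2006 is not given, so these counts have no background beside them. In WT RV against WT LV, 14 of 27 cytosolic chaperones and 10 of 14 Z-disc partners were lower and 0 were higher, where 15.4% of all genes were lower, led by Hspa4 (-0.64) and Xirp2 (-1.29). In AAV_1E14_2.5wk RV against WT RV, 18 of 28 cytosolic chaperones were higher and 2 lower, and 12 of 14 Z-disc partners were higher and 1 lower, where 17.8% of all genes were higher and 18.5% lower.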

How the data were processed

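RNA from RV and LV of 32 mice (64 libraries) was analysed as deposited. The authors trimmed reads with fastp, quantified them with Salmon 1.8.0 against GENCODE M30 on GRCm39, and summed transcripts per gene with tximport. The deposited files hold each gene's estimated counts (each an expected count that need not be whole), its TPM, and a table of effective transcript lengths made by the authors' tximport step, a signal per gene and library that was used only as an offset and described. The labels name polyA RNA, whereas the protocol names a ribosomal RNA depletion kit. Groups were taken from the labels. No column of per-sample values was left unassigned.

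Counts were rounded, TPM were rescaled to a sum of 1000000 without mitochondrially encoded genes, and 37 mitochondrially encoded genes (16.6% to 40.2% of counts) and 1 row without a name (at most 0.00136%) were left out. Library totals were 7.96 M to 14.6 M, and 5.34 M to 10.2 M counts entered the tests, so genes of few counts are measured with less precision. Each comparison was fitted on its own groups with edgeR 4.0.16 (TMM, filterByExpr, quasi-likelihood test) in R 4.3.3, with Benjamini-Hochberg adjustment over all genes and a threshold of 0.05. Alternatives were DESeq2 1.42.0, limma 3.58.1 on log2(TPM + 1), no filter, mitochondrially encoded genes kept, an effective length offset, 1 fit over all groups, the animal as a block, and leaving out animals. Leaving out cKO_2006 for Hspa1a, Hspa1b and the lists, the block with the offset, and the marker ratios over all genes were chosen after seeing the data. The test was checked on simulated counts. The labels pair RV and LV by animal. Deviations of the 2 libraries of an animal correlated at -0.03 (AAV_1E14_2.5wk_5814) to 0.52 (18 of 32 over 0.1). Replicates were separate animals, and the closest of 190 pairs within a group differed by a chi-square of 6.81 per degree of freedom. Within a ventricle, p-values measure the spread between animals. The main tests of RV against LV, and of its difference from WT, had no term for the animal. There the 2 libraries of an animal entered as separate samples, and the pairing entered only in the alternative with the animal as a block.

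All 10 genes were described. From the other lists, up to 3 genes per direction with the smallest p were named, and for each of the 10 the genes with the highest Pearson correlation. The members and lists were chosen with earlier results of these data known. Figures were drawn with matplotlib 3.10.9.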

Additional observations from a re-analysis of the deposited data

Results flagged for a closer look

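In 100 sets of 4 to 9 libraries (10 genes in 10 sets), 9 values stood far from the rest of their set, and chance flags about 1 in 20 such sets. In LV of AAV_1E14_2.5wk_5755, both overlapping neighbours were high, with Cryab at 45.2 CPM (14.8 to 24.9 in the other 5) and Hspb2 at 14.9 CPM (7.22 to 8.91). In LV of WT_5803, Cryab stood at 47.4 CPM (at most 25.2 in the other 8) and Hspb7 at 2541 CPM (971 to 1745). Bag3 stood at 273 CPM in LV of WT_5819 (174 to 215 in the other 8), and Hspb2 at 13.9 CPM in RV of WT_2004 (9.16 to 11.03). Hspb8 stood at 331 CPM in LV of AAV_3E13_2033 (124 to 202 in the other 7). In untreated cKO LV, Flnc stood at 1638 CPM in cKO_3213 (404 to 578 in the other 3) and Cryab at 32.0 CPM in cKO_2052 (8.59 to 12.3).

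The gap between RV and LV differed from that of WT in 7 instances by the edgeR test of the difference itself. In AAV_3E13 these were Hspb1 (0.97), Hspb6 (0.93), Hspb7 (0.78), Des (0.57) and Bag3 (0.51, all on the log2 scale). In AAV_1E14_2.5wk they were Hspb6 (0.91) and Hspb1 (0.82).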

How the results depend on the processing

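Of 270 tests of the 10 genes in 27 comparisons, 71 were called and 0 of these changed direction under any alternative. DESeq2 kept 71 of the 71 calls, keeping mitochondrially encoded genes 70, limma on log2(TPM + 1) 66, the effective length offset 65 and no filter on low counts 61, and 1 fit over all groups kept 47 of 59. By the labels RV and LV came from the same animals, though Xist and Y-linked genes differed between the 2 libraries labelled AAV_1E14_2.5wk_5814. With the animal as a block, 12 of the 12 calls it could touch were kept, and Hspb1 was added in the RV minus LV difference of AAV_1E14 (1 gene in place of 0), as also by DESeq2, limma, the length offset and the block with the offset, 1 each. Counts moved by over 1.5 times in these cases. AAV_3E13 against WT RV gave 2 without the filter and 2 in 1 fit over all groups (6 otherwise), and AAV_3E13 against WT LV gave 5 with the offset (2 otherwise). AAV_1E14 against WT RV gave 3 in 1 fit over all groups (5 otherwise), AAV_1E14 against AAV_3E13 LV gave 2 by DESeq2 and 2 with the offset (1 otherwise), and AAV_1E14_2.5wk against AAV_1E14 RV gave 0 in 1 fit over all groups and 1 without AAV_1E14_2.5wk_5814 (2 otherwise). RV against LV gave 1 in AAV_3E13 with block and offset, an alternative chosen after seeing the data, and 1 in AAV_1E14 by DESeq2 (0 otherwise).

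When single animals were dropped, RV of cKO against WT had 3 to 5 calls and LV 3 to 4, and AAV_1E14 against WT had 3 to 4 (RV) and 0 (LV). Against cKO the counts were 3 to 6 and 1 to 4 for AAV_3E13, 4 to 6 and 3 to 4 for AAV_1E14, and 4 to 7 and 4 to 5 for AAV_1E14_2.5wk (RV and LV). They were 0 (RV) and 0 to 4 (LV) for AAV_1E14 against AAV_3E13, 1 to 2 and 0 for AAV_1E14_2.5wk against AAV_1E14, 0 to 1 for RV against LV and for its difference from WT in AAV_1E14, and 0 for both in cKO. For fits without an animal, here and above, the share of all genes called is not given.

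Low counts of Hspb3, Hspb2 and Cryab limit their precision, and the cause of the changes with processing was not tested.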
